A study of Drosophila melanogaster with 2 samples.

Results

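The chemosensory receptor genes of Drosophila melanogaster were examined for open chromatin in the neurons of the adult mushroom body (MB), the memory centre of the fly brain. The members were all protein-coding genes of the RefSeq table for release 6 of the genome whose symbol is Or, Gr or Ir followed by digits and a letter, as in Or42b. This gave 179 of the 13922 protein-coding genes on the chromosome arms, namely 59 Or, 60 Gr and 60 Ir genes. Their accessibility was taken from ATAC-seq, in which Tn5 transposase cuts open DNA, on nuclei isolated by INTACT, a method that captures GFP-tagged nuclei with antibody-coated beads. There was 1 condition, naive control flies, with 2 biological replicates, each a pool of 50 to 60 flies by the labels, while the paper's methods give a wider range. The flies were w*, carried UAS-unc84::2xGFP over tubGal80(ts), and on another chromosome pair P{VALIUM20-mCherry.RNAi}attP2 over R14H06-Gal4. In these flies the R14H06-Gal4 driver places the nuclear envelope tag in MB neurons. A temperature-sensitive Gal80 repressor and an RNAi transgene against mCherry, which has no target in the fly, are also present. The paper's methods give male flies for INTACT, and no age or temperature, on which the repressor depends, is stated specifically for the ATAC-seq flies in the sources used here. With a single condition, no groups of flies were compared.

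The 3 families encode the receptors with which flies smell and taste. Or proteins are odour-gated ion channels that work in olfactory sensory neurons together with the co-receptor Orco. Gr proteins detect sugars, bitter compounds and carbon dioxide. Ir proteins, relatives of ionotropic glutamate receptors, detect acids, amines, humidity and cool temperature with co-receptors such as Ir25a and Ir8a. Each receptor gene is typically active in a small set of sensory neurons of the antenna, palp or proboscis, while the Kenyon cells of the MB receive odour information through projection neurons.

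The authors' peak lists held 17942 peaks for replicate 1 and 15248 for replicate 2. Peaks of the replicates that overlap by at least 1 bp were merged, and the 14656 regions holding a peak of each replicate are called consensus peaks. Each peak has a fold enrichment, by which the authors' caller gives how far the read pile at the summit exceeds the one modelled for its surroundings, and values for a consensus peak are given for replicate 1 and then replicate 2. By the paper's methods, more reads were kept for replicate 1 than for replicate 2. The lists themselves hold no reads, so that the depth behind a single value is unknown and a site closed in these nuclei cannot be told from one too weak to be called. Nor can a site open in few nuclei be told apart from one weakly open in all. The gene table gives no strand or transcripts, and therefore both the lower and the upper end of each gene, in the order of the coordinates, were used in place of the transcription start. As a check of the tissue, all 10 Kenyon cell markers (ey, toy, dac, Dop1R2, rut, prt, mub, Pka-C1, dnc and sNPF) had a consensus peak within 500 bp of an end, with a mean fold enrichment from 2.93 to 8.0. This was the case for 2 of 5 glial markers (Eaat1 and moody, but not repo, alrm and Gs2), and for 1 of 5 photoreceptor markers (trp, but not ninaE, trpl, Arr1 and inaD). Of 4 chemosensory neuron markers, Orco and Snmp1 had none, whereas the transcription factor genes acj6 and pdm3, which other brain neurons also use, had a peak. Such a peak was found at 66.1% of all protein-coding genes, so that these short lists are a coarse check of the tissue. The nearest consensus peak lay 605 bp from Orco, 520 bp from Gs2, 740 bp from ninaE and 761 bp from inaD. It lay 2145 bp or more from repo, alrm, trpl, Arr1 and Snmp1.

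Open chromatin at the receptor genes was scarce. A consensus peak lay within 500 bp of a gene end at 34 of the 179 receptor genes (19.0%), whereas this was the case for 66.1% of all protein-coding genes. Among the families, 6 Or genes (10.2%), 15 Gr genes (25%) and 13 Ir genes (21.7%) had such a peak. Both replicates gave similar shares. Peaks of replicate 1 alone lay near 35 receptor genes (19.6%, against 68% of all protein-coding genes) and those of replicate 2 alone near 34 (19.0%, against 65.6%). The Gr and Ir counts were equal in both replicates, and the Or count was 7 in replicate 1 and 6 in replicate 2. These shares are descriptions of 1 set of genes, and the difference from other genes was not tested.

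**Figure D1:**
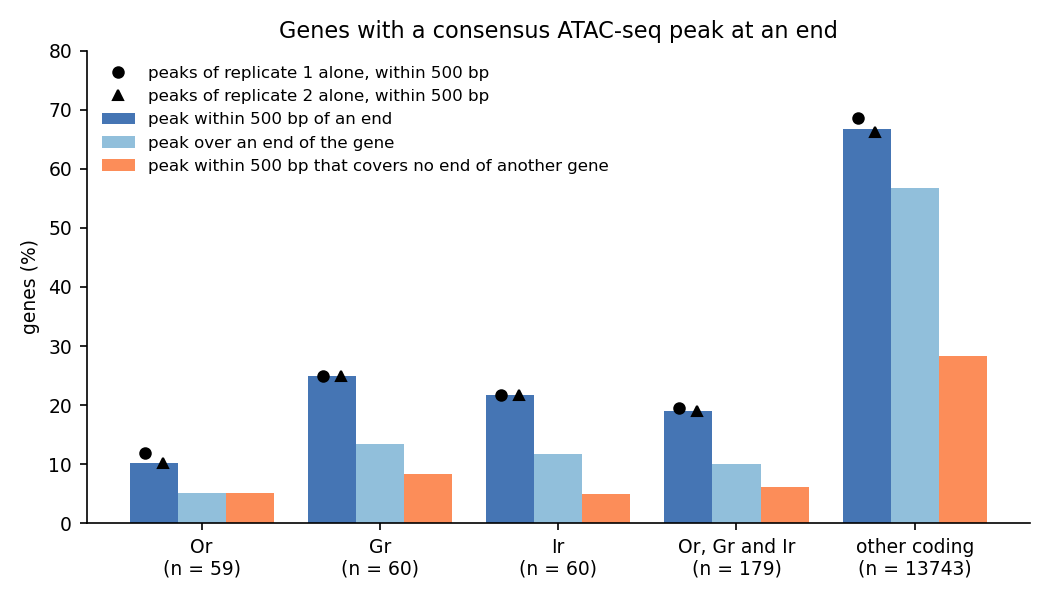
Share of genes (%) with a consensus peak within 500 bp of an end, over an end, or within 500 bp without covering an end of another gene, for each receptor family, all receptor genes and all other protein-coding genes. Points give the shares within 500 bp from the peaks of each replicate alone. Receptor families reach from 10.2% to 25%, and other protein-coding genes 66.7%.

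Only part of these peaks lay on the receptor genes themselves. A consensus peak covered an end of 18 receptor genes (10.1%, against 56.2% of all protein-coding genes). At 14 of these 18, at least 1 such peak also covered an end of another gene, and 4 genes, Gr77a, Ir47a, Ir75d and Or47a, had a peak over their own end and no other (2.23%, against 21.2%). In all, 11 receptor genes had a peak within 500 bp that covered no end of another gene (6.15%, against 28% of all protein-coding genes). The remaining 23 of the 34 (67.6%) had only peaks over an end of a neighbour, namely 3 of 6 Or, 10 of 15 Gr and 10 of 13 Ir genes. The same was true of 57.6% of the other protein-coding genes that had a peak.

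The 34 genes formed 38 pairs of a gene with a peak, over 37 distinct peaks. Gr77a, Gr97a, Ir31a and Or63a each had 2 peaks, and Gr58b and Gr58c shared 1. Of the 38 pairs, 15 had a peak over ends of both the receptor gene and another gene, 11 over an end of another gene only, 5 over an end of the receptor gene only and 7 over no gene end. The other gene was protein-coding and outside the 3 families in 21 of the 26 pairs with a neighbour, a second receptor gene in 2 and a non-coding RNA alone in 3. The gene end nearest to the summit belonged to the receptor gene in 13 pairs and to another gene in 25. These splits were not computed for other protein-coding genes, so that they are not shown to be particular to receptor genes. The median distance to the nearest end of another gene was 370 bp for receptor genes and 166 bp for the others.

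**Figure D2:**
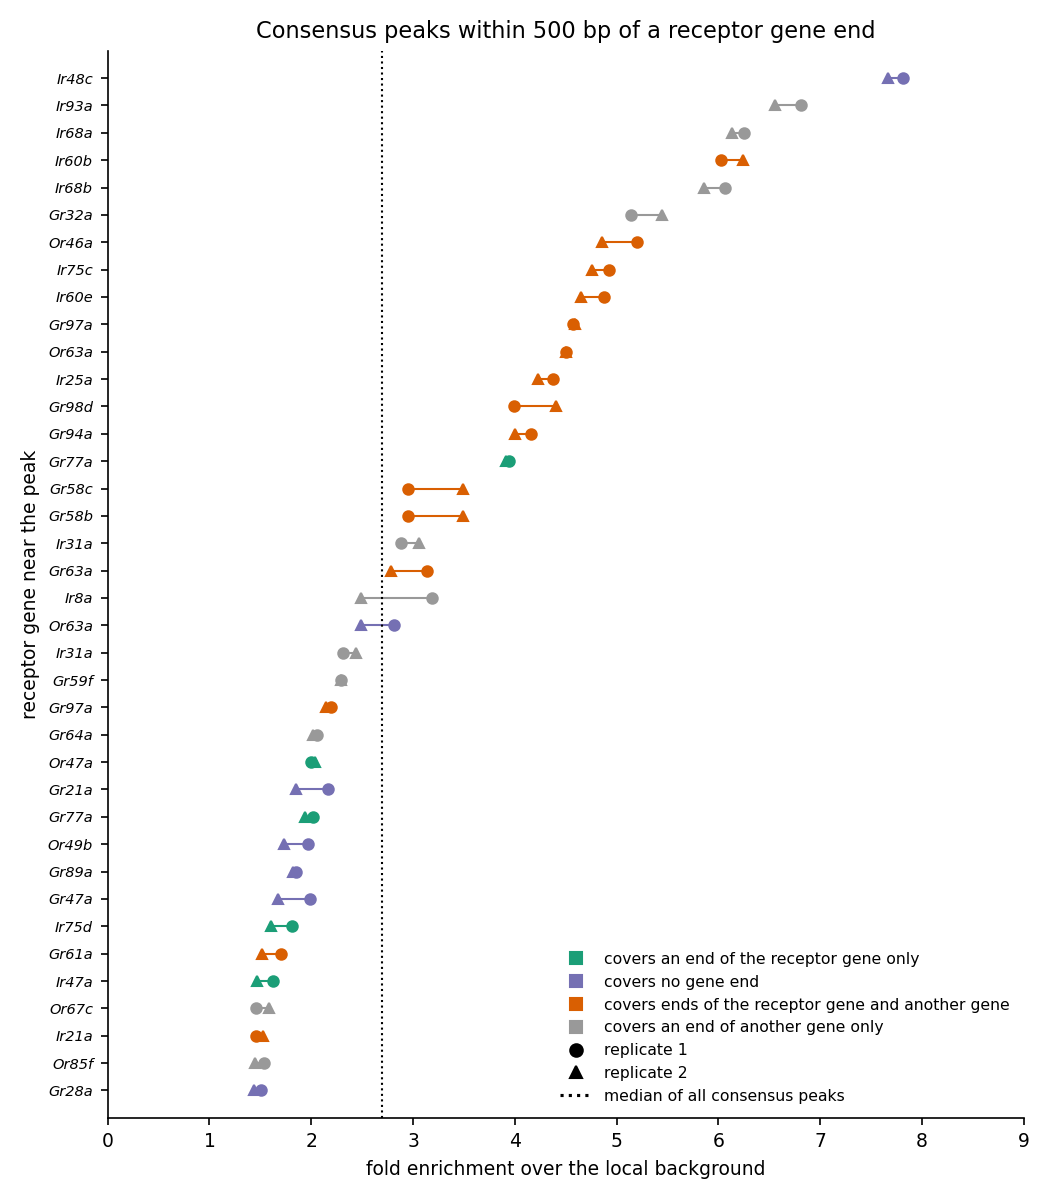
Fold enrichment in replicate 1 (circles) and replicate 2 (triangles) of the 38 pairs of a receptor gene and a consensus peak within 500 bp of its end, in order of the mean and coloured by the gene ends that the peak covers. The dotted line marks the median of all consensus peaks, 2.69. Peaks over a neighbour's end make up most of the upper part, with Ir48c at the top as an exception.

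Near receptor genes, peaks over a neighbour's end had the higher values for the most part. A wide peak reaches a gene end more easily, so that the classes are not independent of width. The same split was not made over all consensus peaks, and the difference is not shown to be particular to receptor genes. The 25 distinct peaks that covered an end of another gene had a median mean fold enrichment of 4.08, with a range from 1.49 to 6.68 and a median width of 1354 bp. The 12 that covered none had a median of 1.91, a range from 1.47 to 7.74 and a median width of 578 bp. Over all 14656 consensus peaks the medians were 2.69 and 918 bp, and 10 of the 12 peaks without a neighbour's end lay below that fold enrichment, compared with 8 of the 25 others. The ratio of replicate 1 to replicate 2 over the 37 peaks ran from 0.846 to 1.28 with a median of 1.03. For the receptor genes with a peak, the median of the strongest peak was 3.10, compared with 3.84 for other protein-coding genes with a peak.

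Of the Ir genes with known roles, Ir93a, Ir25a, Ir8a, Ir21a and Ir68a had peaks, each over an end of a neighbour. At Ir93a, a subunit of the cooling and dry air receptors (3R from 20851709 to 20859945), the consensus peak ran from 20850349 to 20851491 over the ribosomal protein gene RpS30, with a fold enrichment of 6.81 and 6.55. It lay 218 bp outside Ir93a, and its summit was 42 bp from an end of RpS30 and 1151 bp from the receptor gene. At Ir25a, the broadest co-receptor (2L from 4830846 to 4835300), a peak from 4829181 to 4831186 with values of 4.37 and 4.23 covered the lower end of Ir25a as well as an end of Fnta, which encodes a farnesyltransferase subunit, and of a microRNA gene. Its summit lay 148 bp from an end of Fnta and 301 bp from Ir25a. At the co-receptor gene Ir8a on X, values of 3.18 and 2.49 belonged to a peak 50 bp outside the gene whose summit was 4 bp from an end of CG12121. This peak had the widest ratio between the replicates, 1.28. Ir21a, the partner of Ir93a in cooling cells, had a weak peak of 1.46 and 1.52 over its lower end, which also covered an end of an antisense RNA gene. Near Ir68a, needed for sensing moist air, a peak of 6.25 and 6.14 lay 391 bp away over a long non-coding RNA gene, with its summit 1204 bp from Ir68a. The co-receptor Ir76b, with a nearest peak 2916 bp away, and Ir40a, which is needed for sensing dry air, with one 9523 bp away, had none within 500 bp.

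The other strong peaks near Ir genes followed the same arrangement, with Ir48c as the exception. A peak of 6.03 and 6.24 covered the lower end of Ir60b and an end of Letm1, a mitochondrial ion transporter gene, with the summit 197 bp from Letm1 and 562 bp from Ir60b. Ir75c with 4.92 and 4.75 and Ir60e with 4.88 and 4.65 had peaks over ends of Grd, a subunit gene of a ligand-gated chloride channel, and of CG13585. Ir31a had a peak on each side, with 2.88 and 3.06 over ends of Ip259 and RpS27A and 2.31 and 2.44 over ends of Cnot4, CG17768 and LSm-4. Near Ir68b, a peak of 6.07 and 5.86 covered an end of yps, which encodes a Y-box RNA-binding protein. The peak near Ir48c was the strongest of all receptor genes, with 7.82 and 7.66, and its mean lay at percentile 98.6 of all consensus peaks. It ran on 2R from 11789926 to 11790598, covered no gene end and lay 433 bp outside Ir48c. Both the receptor gene and the peak lie inside ths, which encodes a fibroblast growth factor.

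The carbon dioxide receptor genes of the Gr family each had a peak. At Gr63a, values of 3.14 and 2.78 belonged to a peak over its upper end and over an end of Lamtor4, a subunit gene of the lysosomal Ragulator complex, with the summit 61 bp from Lamtor4 and 236 bp from Gr63a. At its partner Gr21a, a weaker peak of 2.17 and 1.85 lay inside the gene, 113 bp from the lower end, on 2L from 780595 to 781251, and covered no gene end. Gr32a, a receptor for bitter compounds and for a male pheromone, had a peak of 5.14 and 5.44 lying 186 bp outside over an end of the lysosomal enzyme gene Idua. Gr97a was flanked on both sides. A peak of 2.19 and 2.14 covered its lower end and an end of the tetraspanin gene Tsp97E, and a peak of 4.57 and 4.59 its upper end and an end of CG5521. At Gr98d, values of 3.99 and 4.41 belonged to a peak shared with the kinesin gene Klp98A, and at Gr94a, which lies inside p53, values of 4.16 and 4.0 to a peak over ends of p53 and the cystine transporter gene Ctns. Other Gr peaks with a neighbour had values of 2.29 and 2.29 near Gr59f over an end of AIMP3, of 2.06 and 2.02 near Gr64a, and of 1.70 and 1.52 at Gr61a, shared with JMJD5. The peak shared by Gr58b and Gr58c, with 2.95 and 3.49, was the one case in which receptor genes were each other's neighbour, and its summit lay 26 bp from an end of Gr58c.

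**Figure D3:**
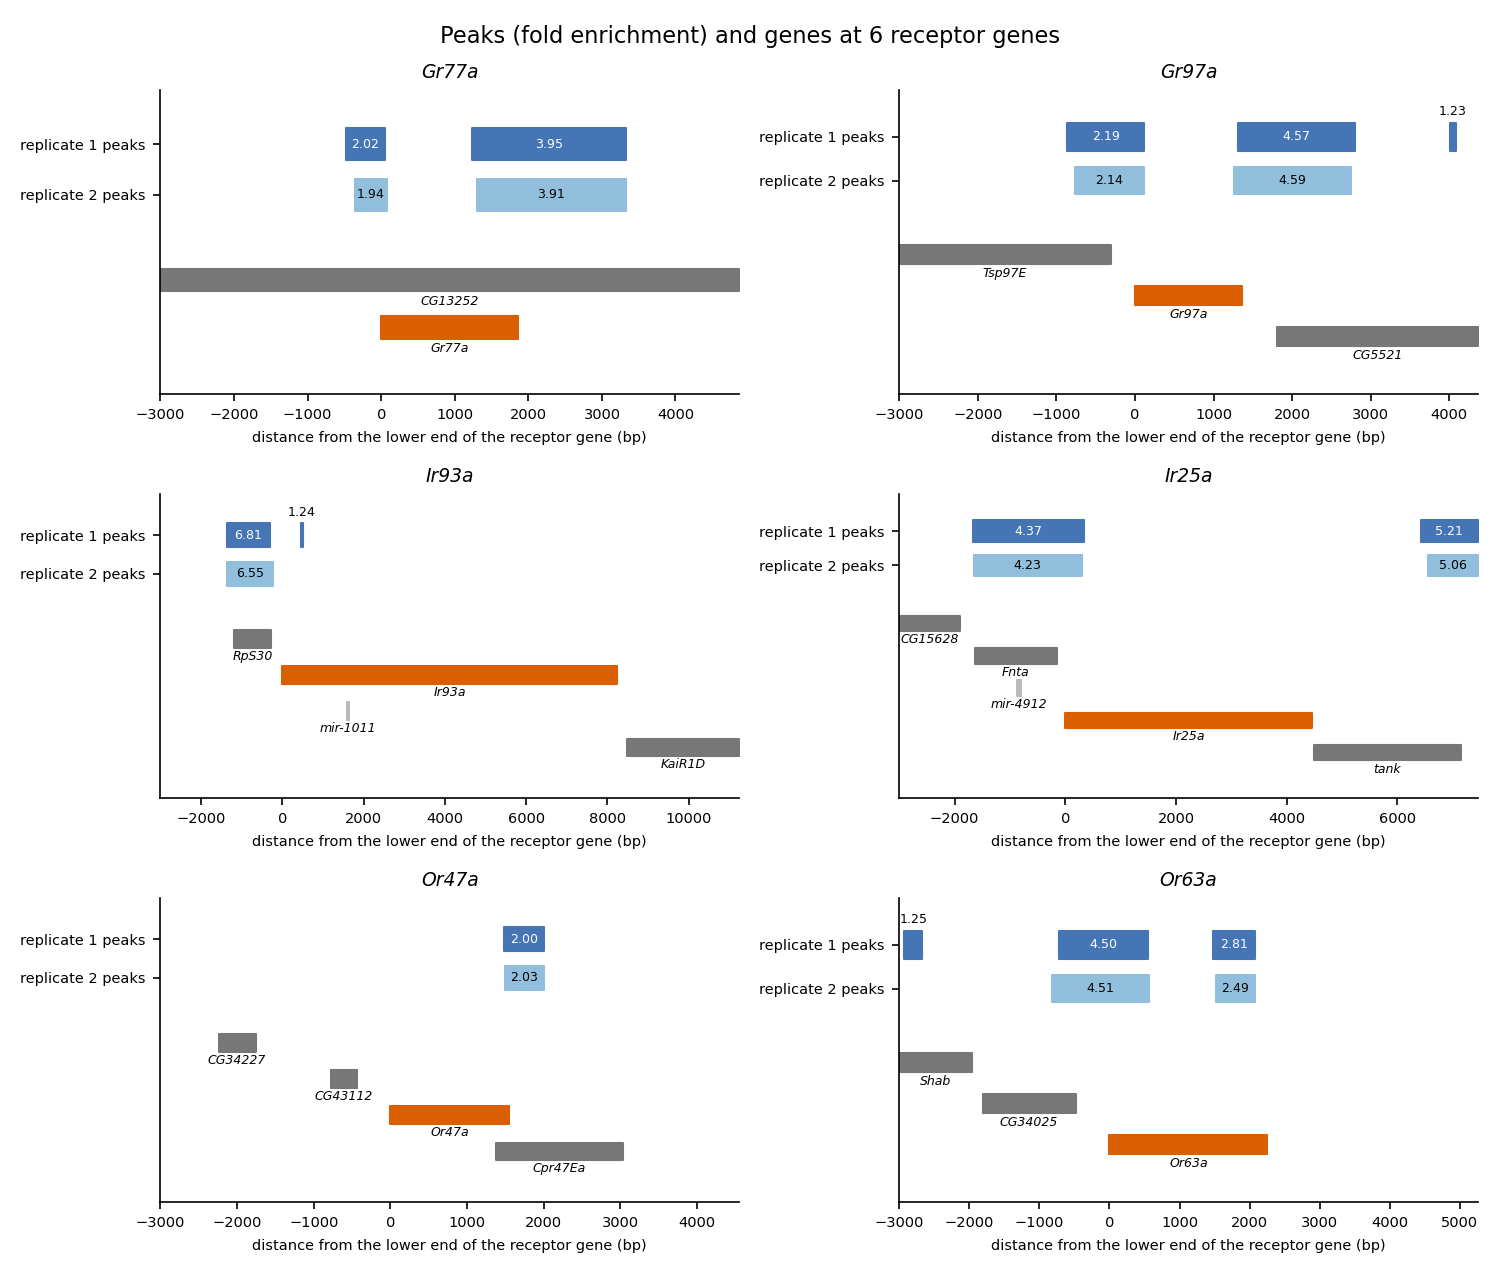
Peaks of replicate 1 (dark blue) and replicate 2 (light blue) with their fold enrichment above the genes at 6 receptor genes, with the receptor gene in orange, other protein-coding genes in dark grey and microRNA genes in light grey, against the distance in bp from the lower end of the receptor gene. At Gr97a, Ir93a and Ir25a the consensus peaks cover ends of neighbours, and at Gr77a both lie inside the host gene CG13252. Weak peaks of replicate 1 alone, of 1.23 at Gr97a, 1.24 at Ir93a and 1.25 at Or63a, cover no gene end.

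Few peaks belonged to receptor genes without a neighbour's end. Gr77a (3L) had 2 of them, with 2.02 and 1.94 over the lower end and 3.95 and 3.91 over the upper end, and lies inside CG13252, as do both peaks. The summits lay 233 bp and 736 bp from an end of Gr77a, so that with summits within 500 bp only the weaker peak, with a mean of 1.98, was left. At Or47a, a receptor for fruit esters, a peak of 2.00 and 2.03 covered the upper end and lay within Cpr47Ea, a cuticle protein gene that overlaps it. At Ir75d the values were 1.82 and 1.60, inside COX6AL2, and at Ir47a they were 1.62 and 1.46, inside the potassium channel gene SLO2, which also holds Gr47a with 1.99 and 1.67. A window of 1000 bp brought in a stronger peak near Ir47a with a mean of 5.64. Of the 12 pairs without a neighbour's end, 8 had a peak inside another gene. The other 4 were at Gr21a, at Gr28a with 1.5 and 1.44, at Gr89a with 1.85 and 1.83, and at Or63a. The Or63a peak, with 2.81 and 2.49, lay inside the gene, where a second peak of 4.50 and 4.51 covered the lower end and an end of CG34025. In that second peak the summit was 76 bp from Or63a, the nearest gene end.

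The strongest peak at an Or gene, at Or46a, which responds to phenolic odours in the maxillary palp, had values of 5.20 and 4.86. It covered the upper end of Or46a and ends of CG18011 and of an antisense RNA gene, with the summit 30 bp from CG18011 and 294 bp from Or46a. Apart from those at Or63a, the other peaks at Or genes had values of about 2 or less. Or67c had values of 1.46 and 1.58 over an end of a long non-coding RNA gene, and Or85f 1.54 and 1.44 in a peak 82 bp away over an end of CG34117.

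The Or genes on the list of members with a well known role had no consensus peak within 500 bp. They are few, and only 10.2% of all Or genes had such a peak, so that little follows for well known Or genes. Or46a and Or47a, which had peaks, were not on that list. The nearest consensus peak lay 515 bp from Or42b, which detects food odours, 623 bp from Or13a and 1194 bp from Or83c. It lay 4215 bp from Or67d, the receptor for the male pheromone cVA, 6791 bp from the fruit ester receptor Or22a, and 11143 bp from the pheromone receptor Or47b. Among the Gr genes with known roles, Gr5a (604 bp), Gr66a (731 bp), Gr33a (1142 bp), Gr39a (1712 bp), Gr64f (1892 bp), Gr43a (2164 bp), Gr28b (2501 bp) and Gr68a (8097 bp) also had none. Gr5a and Gr64f serve sugar taste, Gr66a and Gr33a bitter taste, and Gr43a senses fructose. Among the Ir genes, none was found near Ir84a (602 bp), Ir92a (610 bp), Ir75a (4715 bp), Ir40a (9523 bp) and Ir64a (11621 bp). In all, 8 of 28 receptor genes with known roles (28.6%) had a consensus peak, compared with 19.0% of all receptor genes and 66.1% of all protein-coding genes. At 1 of these, Gr21a, it covered no end of another gene. The genes just inside the limit of 500 bp were Or49b (421 bp), Ir48c (433 bp) and Gr64a (458 bp), and those just outside were Or42b, Ir84a, Gr5a, Ir92a, Or13a and Or88a (647 bp).

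The distance to the nearest consensus peak had a median of 3671 bp for Or, 2229 bp for Gr and 3195.5 bp for Ir genes. More than 50% of the other protein-coding genes had a peak over an end, so that their median was 0. Of the receptor genes, 62 (34.6%) were over 5000 bp from a peak, compared with 12.4% of other protein-coding genes. The farthest were Ir41a at 68155 bp and Gr36a, Gr36b and Gr36c at 35733 to 39453 bp. A further 4 genes, Ir76a, Ir84a, Or22c and Or45a, had a consensus peak inside the gene and over 500 bp from both ends.

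**Figure D4:**
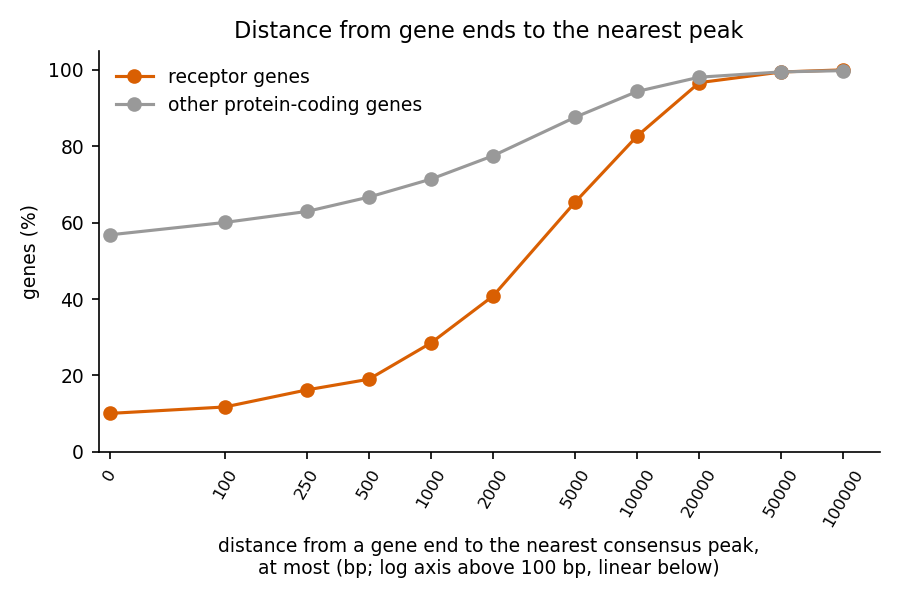
Share of receptor genes (orange) and of other protein-coding genes (grey) with a consensus peak at most the given distance in bp from a gene end. At 0 bp the shares are 10.1% and 56.8%, and the curves meet at about 50000 bp, with 99.4% and 99.5%.

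The share with a peak differed with the spacing of the genes. Of the 96 receptor genes that lay outside other genes and had an end of another gene within 500 bp, 25 (26.0%) had a consensus peak, as did 2 of 21 (9.52%) with the nearest end farther than 500 and up to 2000 bp away and 0 of 29 beyond 2000 bp. For other protein-coding genes, the shares were 75.7%, 51.9% and 43.8%. Of the 33 receptor genes inside another gene, 7 (21.2%) had a peak, compared with 46.0% of the other protein-coding genes so placed. Genes with the same span count as inside each other here, as do Gr10a and Or10a, and Gr64b and Gr64c, all without a peak. The median length was 1691 bp for receptor genes and 2180 bp for the others. By length, the shares of the receptor genes were 13.9% up to 1500 bp, 19.2% from there to 2500 bp and 31.0% above, whereas those of other genes were 45.9%, 67.6% and 82.2%. In each group by spacing or length, the receptor genes had the lower share. No test was made of these differences.

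**Figure D5:**
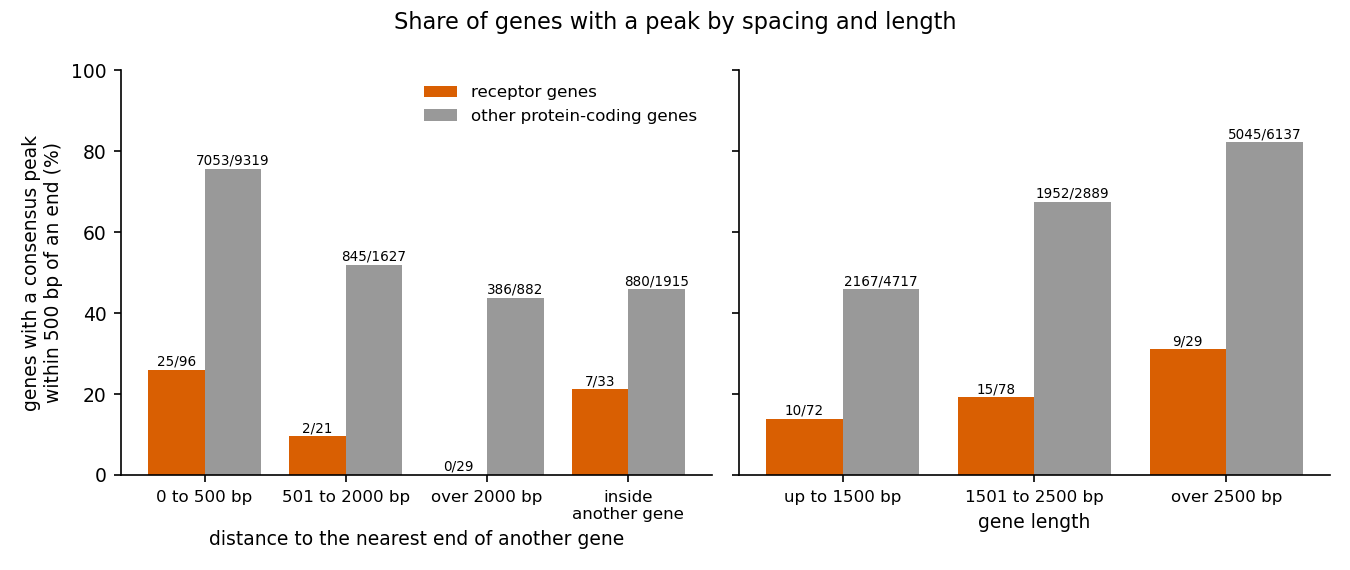
Share of genes with a consensus peak within 500 bp of an end (%), for receptor genes (orange) and other protein-coding genes (grey), by the distance to the nearest end of another gene and by gene length. Numbers above the bars are genes with a peak and all genes of the group, with 0 of 29 receptor genes at over 2000 bp.

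The genes next to the receptors were open about as often as the average gene. In a comparison chosen after these shares were seen, 90 of 141 other protein-coding genes with an end within 2 kb of a receptor gene end (63.8%) had a consensus peak within 500 bp of an end. The strongest peak of each had a median fold enrichment of 4.08. A peak covered an end of 79 of these genes (56.0%), compared with 18 of the 179 receptor genes. Peaks near receptors are in part those of these neighbours, so that the 2 counts are not independent. The neighbours were not set against genes of like spacing, and by spacing the share of other protein-coding genes ran from 43.8% to 75.7%.

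By grouping along the chromosome, the shares also lay below the 66.1% of all protein-coding genes. With at most 10 kb between neighbouring members, 97 receptor genes stood alone, and 24 of these (24.7%) had a peak. Of 24 genes in pairs, 3 (12.5%) had one, and of 58 genes in 16 larger groups, 7 (12.1%). No gene of the larger groups had a peak without a neighbour's end, compared with 6.15% of all receptor genes and 28% of all protein-coding genes. A fellow receptor gene counts as a neighbour here, and the peak at Gr58b and Gr58c covered no other gene's end. The Gr22 genes (5 in the group), Gr36 genes (3), Or65 genes (3) and Ir52 genes (4) had no consensus peak within 500 bp. In the group of 6 sugar receptor genes from Gr64a to Gr64f, only Gr64a had one, with 2.06 and 2.02 at 458 bp, and its summit was 17 bp from an end of CG11594. Gr64b and Gr64c have the same span in the gene table, as do Gr10a and Or10a, so that these cannot be told apart by position. By chromosome arm, the share was 4% on X (1 of 25, Ir8a), 14.3% on 3R, 19.4% on 2L, 23.9% on 2R and 28.6% on 3L. Other protein-coding genes had 64.5%, 69.3%, 62.8%, 68.0% and 66.8% on the same arms.

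At 3 Or genes, only 1 of the replicates had a peak within 500 bp of an end. Peaks of 1 replicate alone at genes with a consensus peak are not counted here. An example is Ir93a, where a replicate 1 peak of 1.24 began 452 bp inside the lower end. Or22c had a replicate 1 peak with a fold enrichment of 1.27 at 105 bp, and Or43a a replicate 2 peak of 1.46 over its lower end. At Or49b the consensus peak had values of 1.97 and 1.73, but only the replicate 1 peak lay within 500 bp.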

How the data were processed

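Reads had been trimmed (Trimmomatic, version 0.39) and aligned (Bowtie2, version 2.4.1) by the authors against release 6, and cut positions were moved by 4 bp or 5 bp according to strand. Reads at multiple loci and duplicates had been discarded. MACS2 (version 2.1.2) was run per replicate with a q limit of 0.01, according to the paper's methods. The deposited lists give for each peak a fold enrichment ratio, a -log10 p-value and q-value, a score derived from the q-value, and the summit. The loss of reads at multiple loci can lower the signal at near-identical receptor genes, which was not tested. Gene ends came from a RefSeq table of release 6. Intervals and shares were computed with Python (version 3.11.15), numpy (version 2.4.6) and pandas (version 2.3.3), and the classes of peaks were checked on simulated lists. No test between samples was possible with 1 condition.

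The members, lists and alternatives were chosen with earlier results of these data known. Genes were named when they had one of the 5 strongest peaks over their own end alone in a family, one of the 5 strongest peaks over all families, a well known role, or a peak in 1 replicate only, together with the neighbours at named peaks. Other genes were named after their values were seen. Shares were recomputed with other overlaps, q-value limits, windows, summits and single replicates. Sequences, strand, transcription starts and promoter motifs were not analysed here.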

Additional observations from a re-analysis of the deposited data

How the results depend on the processing

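A share counted as moved when its number of genes changed by over 1.5 times, and the median fold enrichment and the share with only neighbours' peaks when they moved by more than the SD between the replicates. Of 81 comparisons with an alternative, 59 stayed and 22 moved. Windows of 0 bp and 1000 bp gave 5.08% and 25.4% of Or genes. The window of 1000 bp also gave 31.7% of Gr, 28.3% of Ir and 28.5% of all receptor genes. The last of these, 51 genes, lay at the limit of 1.5 times and counted as stayed. The window of 0 bp gave 13.3% of Gr, 11.7% of Ir and 10.1% of all receptor genes, and with summits within 500 bp 13.3% of Ir genes had a peak. Other protein-coding genes had from 54.4% to 71.4% under these settings. Counting only peaks without an end of another gene gave 6.15% of receptor and 28.3% of other genes.

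The share of receptor genes with only neighbours' peaks, 67.6%, was 69.7% with a reciprocal overlap of 50% or a -log10 q of 5 or more, and 73.1% for 10 or more. It was 77.8%, 69.0% and 56.9% with windows of 0, 250 and 1000 bp, 65.2% with summits, 58.8% with protein-coding neighbours only and 61.8% with neighbours outside the families. Leaving out a replicate gave 62.9% to 64.7%. The median fold enrichment of 3.10 became 4.14 at a -log10 q of 10 or more, 4.0 with 0 bp and 2.29 with summits. At that limit, 26 receptor genes (14.5%) had a peak. Counting only transcription starts was not run, since the table gives no strand. No paired analysis was possible because the flies form a single condition. Without read counts, depth cannot set a limit for a gene with no peak.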

Other observations

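Other chemosensory gene groups were counted in the same way, where 66.1% of all protein-coding genes had a consensus peak within 500 bp of an end and 28% had one covering no end of another gene. Of 51 odorant-binding protein (Obp) genes, which carry odorants in the sensillar fluid, 9 (17.6%) had a peak, and at 3 of these it covered no end of another gene. Of 28 ppk genes, which encode sodium channel subunits used in pheromone, salt and touch sensing, 10 (35.7%) had one, 2 of them without a neighbour's end. The counts were 5 of 20 (25%) for CheA and CheB genes and 0 of 2 for Snmp genes. Over the 101 genes of these lists, 24 (23.8%) had a peak and 8 (7.92%) had one without a neighbour's end, with a median strongest fold enrichment of 3.64. Of the 6 annotated Ir pseudogenes, none (0) had a consensus peak. These are counts without a test, and the lists overlap with no receptor gene.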
